A study of Mus musculus with 4 samples.

Results

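The myeloid C-type lectin receptors described here are 10 genes taken by name from 24497 mouse rows of a bulk RNA-seq table: Clec4a1, Clec4a2, Clec4a3, Clec4d, Clec4e, Clec4n, Clec5a, Clec7a, Clec9a and Clec12a. They were measured in 2 libraries labelled Tet2 KO and 2 labelled WT. Both groups are mouse AML cells labelled NRAS/AE9a, after an activated RAS oncogene and AE9a, a truncated form of the AML1-ETO fusion, and differ by the genotype label. Per the labels' protocols, cells were cultured with SCF, IL-3 and IL-6 under G418 and puromycin, and leukaemic cells were given to NCI C57 B6.SJL (CD45.1+) recipients 6 to 8 weeks old after 900 cGy. The leukaemic cells were recovered from the spleen by enriching CD45.2 cells, so host cells may remain, and the labels do not give the Tet2 allele, the number of leukaemia lines or whether each library is a different animal.

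C-type lectin receptors are membrane proteins with which monocytes, macrophages, neutrophils and dendritic cells bind sugars, lipids and products of damaged cells. Activating members signal through a tyrosine in their own tail or through the adaptors FcR gamma and DAP12, which recruit the kinase SYK and, through CARD9, BCL10 and MALT1, switch on NF-kB. The adaptor DAP10 recruits PI3-kinase instead. Inhibitory members carry a tyrosine motif, called ITIM, that recruits phosphatases. Most of these genes are expressed in myeloid cells in patterns that depend on cell type and on maturation.

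Values are TPM, a transcript abundance already scaled for transcript length, so that levels of different genes can be compared. The WT libraries differed by little more than the sampling of reads: over 4644 genes with a single annotated transcript the robust variance between them was 1.19 times that expected from sampling, against 8.55 times for the pair labelled Tet2 KO (4847 genes), with 1004 genes more than 5 SD of sampling apart in that pair and 29 in the WT pair. The 2 samples labelled Tet2 KO (n = 2) were accordingly set against the mean of the WT pair as 1 sample (n = 1). The p-values rest on the spread between those 2 libraries, which may be technical. For each gene limma draws that spread toward the spread of genes of like level, so a p-value does not measure the gene's own spread alone. The ERCC share of all TPM was 2.95% and 3.19% in libraries labelled Tet2 KO, against 4.66% and 4.62% in WT. Tet2 itself was not lower, with 63.7 and 68.1 TPM in libraries labelled Tet2 KO, against 43.5 and 43.7 TPM in WT (0.58 ± 0.19 on the log2 scale, limma adjusted p = 0.0171), which for a whole gene does not check the loss of an exon, so groups are named by their labels. Ptprc and Spi1, which encode CD45 and the myeloid factor PU.1, are among 8 listed markers of leukaemic myeloid cells. They stood at 396 to 413 and 508 to 650 TPM in libraries labelled Tet2 KO, against 292 to 296 and 630 to 662 TPM in WT. Others of that list differed in both directions. Mpo stood at 203 and 253 TPM in libraries labelled Tet2 KO, against 11.8 and 10.8 TPM in WT. Cd34 stood at 14.7 and 15.8 TPM, against 60.6 and 60.7 TPM in WT. Whether both groups hold the same cell types was not tested.

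Changes among the receptors went in both directions, as did those over all genes tested. Of the 9 receptors with enough expression to test, 4 fell in libraries labelled Tet2 KO (Clec4a1, Clec12a, Clec4n and Clec4e) and 2 rose (Clec7a and Clec4a2), with log2 changes between -2.33 and 1.22. Clec4a3, Clec4d and Clec5a did not pass, and Clec9a was too low to test. A call is a limma adjusted p under 0.05 (Benjamini-Hochberg over all genes tested, two-sided), on log2(TPM + 1), a scale that understates changes of low genes. That rule called 48.8% of the 11919 genes tested, 22.1% as higher and 26.7% as lower, so calls are common in this comparison and 6 of 9 is to be read against that share. The median log2 change of the 9 receptors was -0.61, beside -0.12 for all genes tested. In bulk RNA, fewer cells of a type and less RNA per cell cannot be told apart. The 6 calls were lost where genes with low values were kept in the fit, and were retained in the other 12 alternatives.

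**Figure D1:**
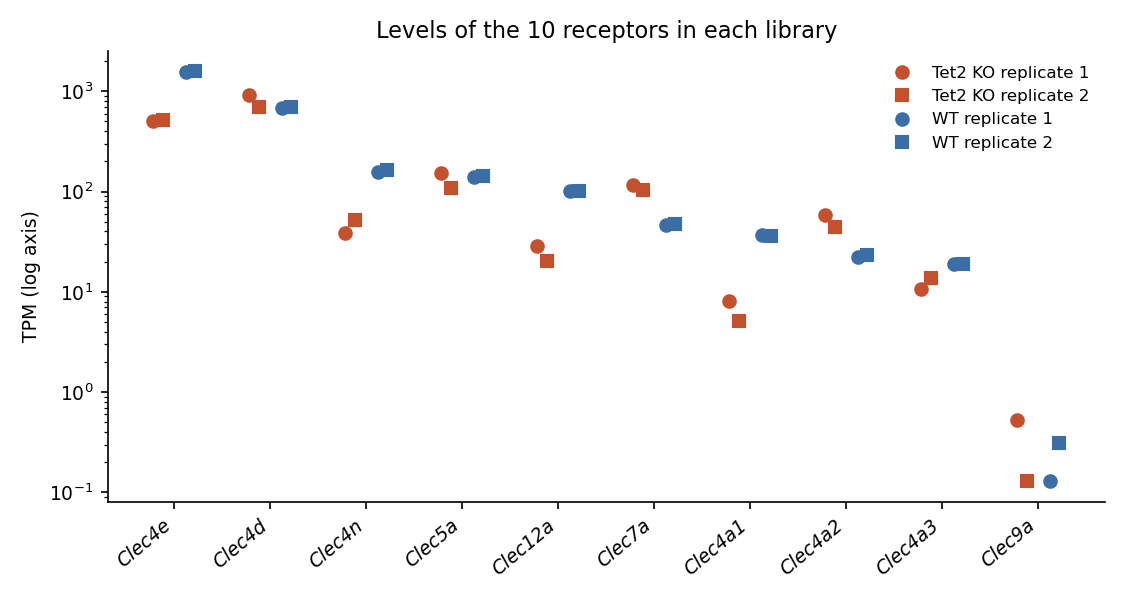
TPM (log axis) of each receptor in each library, Tet2 KO libraries in red on the left and WT libraries in blue on the right of each pair, genes ordered by their WT mean. Clec4e, Clec4n, Clec12a and Clec4a1 lie lower in both Tet2 KO libraries, Clec7a and Clec4a2 lie higher, and Clec9a is under 1 TPM in all 4.

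All 10 genes lie on chromosome 6 (mm10; GENCODE M21 on the same assembly). Clec4a1, Clec4a3, Clec4a2, Clec4n, Clec4d and Clec4e follow each other over 368 kb (chr6:122921848-123289870). Clec12a, Clec9a and Clec7a share a stretch of 130.1 kb (chr6:129342691-129472779), and Clec5a lies apart (chr6:40574894-40585821, minus strand). Clec4d (chr6:123262111-123275265, plus strand) and Clec4e (chr6:123281789-123289870, minus strand) are neighbours with a gap of 6.52 kb and their ends facing, so their promoters lie on the outer sides of the pair. GENCODE M21 annotates Clec7a (chr6:129461591-129472779, minus strand) as a polymorphic pseudogene and the other 9 as protein coding.

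Promoters of 2 pairs, each from 1 stretch, are shown because the calls of their members differ: Clec4e fell and Clec4d did not pass, Clec12a fell and Clec7a rose. Each line holds the 250 bases before the RefSeq start (GRCm38.p6), written 5′ to 3′ on the strand of the gene, and capitals mark a match to a C/EBP motif.
Clec4e, chr6:123289872-123290121, minus strand: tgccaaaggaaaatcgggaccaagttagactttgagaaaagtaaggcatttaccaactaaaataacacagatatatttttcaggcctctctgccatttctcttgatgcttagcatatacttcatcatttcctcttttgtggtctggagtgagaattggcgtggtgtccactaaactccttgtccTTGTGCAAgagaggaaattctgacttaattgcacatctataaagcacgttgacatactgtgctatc
Clec4d, chr6:123261857-123262106, plus strand: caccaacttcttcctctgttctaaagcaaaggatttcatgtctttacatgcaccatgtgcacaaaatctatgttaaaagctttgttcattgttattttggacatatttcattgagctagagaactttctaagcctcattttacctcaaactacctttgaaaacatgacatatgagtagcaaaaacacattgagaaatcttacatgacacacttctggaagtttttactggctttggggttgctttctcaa
Clec12a, chr6:129349994-129350243, plus strand: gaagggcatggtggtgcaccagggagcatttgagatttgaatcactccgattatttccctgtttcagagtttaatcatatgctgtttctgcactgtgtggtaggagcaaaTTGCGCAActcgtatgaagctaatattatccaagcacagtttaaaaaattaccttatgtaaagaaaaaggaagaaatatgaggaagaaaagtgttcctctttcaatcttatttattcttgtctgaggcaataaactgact
Clec7a, chr6:129472780-129473029, minus strand: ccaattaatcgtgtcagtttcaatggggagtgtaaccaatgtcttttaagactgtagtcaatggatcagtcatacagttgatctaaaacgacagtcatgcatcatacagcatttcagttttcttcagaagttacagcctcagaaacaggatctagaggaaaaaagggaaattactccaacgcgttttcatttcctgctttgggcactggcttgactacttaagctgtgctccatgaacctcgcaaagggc

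The RefSeq table held 11 promoters for 9 of the 10 receptors, and none for Clec4n, which fell. The window of Clec12a lies inside the gene as GENCODE M21 annotates it (chr6:129342691-129365303), because the RefSeq start used is further downstream. The same holds for Clec4a2. Searched on both strands, the C/EBP letters TTGCNNAA occurred in 2 of these 11 promoters and in 9.56% of all 32851 promoters. The matches are TTGTGCAA in Clec4e, its first base 66 bases before the start, where the reverse complement of the printed letters holds the motif, and TTGCGCAA in Clec12a, 140 bases before the start, which reads the same on both strands. Letters for PU.1 (GAGGAAGT), for the interferon-stimulated response element (GAAANNGAA) and for NF-kB (GGANNTTCC) matched 0 of the 11, beside 2.44%, 7.13% and 3.59% of all promoters, and no match overlapped another motif. Clec4a1, which fell as well, had no match to any of these letters. The counts describe letters in the windows and say nothing of the factors.

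Among the receptors that signal through adaptors or through their own tail, Clec4e fell the most in TPM. This gene encodes Mincle, which binds mycobacterial cord factor and a nuclear protein released by dying cells. Its level was 510 and 523 TPM in libraries labelled Tet2 KO, against 1554 and 1584 TPM in WT. The groups lie far apart and the libraries within each are close. The log2 change was -1.60 ± 0.26 (SE; limma adjusted p = 0.000103), or 3.03-fold lower. By level, Clec4e stood at ranks 268 and 260 among mouse genes in libraries labelled Tet2 KO, against 95 and 92 in WT.

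Clec4d, whose product MCL forms a complex with Mincle, did not pass the test. It stood at 915 and 697 TPM in libraries labelled Tet2 KO, against 688 and 701 TPM in WT. The groups overlap, since the value of Tet2 KO replicate 2 lies between the WT values. The log2 change was 0.20 ± 0.27 (limma adjusted p = 0.570), with a 95% interval of -0.38 to 0.78. Without Tet2 KO replicate 2 the change was 0.40 (adjusted p = 0.000103), and without replicate 1 it was 0.0047 (adjusted p = 0.844), in fits whose spread comes from the WT pair alone. The ratio of Clec4e to Clec4d within a library, which a single scaling factor per library does not alter, was 0.558 and 0.750 in libraries labelled Tet2 KO, against 2.26 and 2.26 in WT. Clec4d was thus the more abundant of the pair in both libraries labelled Tet2 KO, and Clec4e in both WT libraries.

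The receptors for fungal sugars moved in opposite directions. Clec4n encodes Dectin-2, which binds mannans and signals through FcR gamma, and stood at 38.6 and 51.8 TPM in libraries labelled Tet2 KO, against 156 and 163 TPM in WT. Clec7a encodes Dectin-1, which binds beta-glucan and carries its own activating tyrosine motif, and stood at 118 and 103 TPM in libraries labelled Tet2 KO, against 46.0 and 47.4 TPM in WT. Groups do not overlap for either gene. Clec4n fell by 1.81 ± 0.21 on the log2 scale (limma adjusted p = 5.94e-06), 3.51-fold lower, and Clec7a rose by 1.22 ± 0.19 (adjusted p = 8.72e-05), 2.33-fold higher. The ratio of Clec7a to Clec4n was 3.05 and 2.00 in libraries labelled Tet2 KO, against 0.294 and 0.291 in WT, so Clec7a was the higher of the pair in both libraries labelled Tet2 KO and Clec4n in both WT libraries.

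Clec5a encodes MDL-1, a receptor that pairs with DAP12 and DAP10. Its level was 155 and 109 TPM in libraries labelled Tet2 KO, against 140 and 144 TPM in WT, with the WT values inside the spread of the others. The log2 change was -0.12 ± 0.23 (limma adjusted p = 0.689), with a 95% interval of -0.63 to 0.38. Its sign rested on which library was used. In fits whose spread comes from the WT pair alone, the change was -0.37 without Tet2 KO replicate 1 and 0.13 without replicate 2. Scaled to ERCC it was 0.47. Clec9a encodes DNGR-1, a receptor of type 1 conventional dendritic cells for actin exposed by dead cells, and stood at 0.53 and 0.13 TPM in libraries labelled Tet2 KO, against 0.13 and 0.31 TPM in WT. These values overlap, lie under the minimum of 1 TPM in 2 libraries and give no fold change.

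Of the inhibitory receptors, Clec12a fell while Clec4a2 rose. Clec12a encodes MICL, an ITIM receptor that binds uric acid crystals and is known in human as a surface marker of AML cells. It stood at 28.4 and 20.1 TPM in libraries labelled Tet2 KO, against 101 and 101 TPM in WT, groups that lie well apart. Its log2 change was -2.03 ± 0.23 (limma adjusted p = 5.71e-06), or 4.10-fold lower. Clec4a2 encodes DCIR, an ITIM receptor of the Clec4a group, and stood at 58.1 and 44.2 TPM in libraries labelled Tet2 KO, against 22.04 and 23.3 TPM in WT. Here too the groups do not overlap, in the other direction, with a log2 change of 1.13 ± 0.21 (adjusted p = 0.000547), or 2.18-fold higher. Of the distinct 50-base stretches in Clec4a2 transcripts, 6.69% occur in transcripts of another gene, 3.85% in those of Clec4a4 (0.36 to 1.53 TPM in the 4 libraries), so a small part of its reads cannot be assigned with certainty.

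Of the close relatives of Clec4a2, Clec4a1 fell and Clec4a3 did not pass. Clec4a1 stood at 8.11 and 5.08 TPM in libraries labelled Tet2 KO, against 37.0 and 36.1 TPM in WT, with groups well apart and the largest change of the 9 at -2.33 ± 0.30 (limma adjusted p = 1.88e-05), 5.04-fold lower. Clec4a3 stood at 10.8 and 13.8 TPM in libraries labelled Tet2 KO, against 19.2 and 19.0 TPM in WT. Its groups do not overlap either, but the change of -0.61 ± 0.27 did not pass (adjusted p = 0.0756; 95% interval -1.18 to -0.03). The change was -0.44 without Tet2 KO replicate 1 and -0.77 without replicate 2, in fits whose spread comes from the WT pair alone. Scaled to ERCC it was -0.05. The ratio of Clec4a2 to Clec4a1 was 7.16 and 8.70 in libraries labelled Tet2 KO, against 0.596 and 0.646 in WT. Neither Clec4a1 nor Clec4a3 shares a 50-base stretch with another gene. Groups did not overlap for 7 of the 9 tested receptors, 2 higher and 5 lower, where 87.0% of all genes compared did not overlap, 38.4% higher and 48.7% lower.

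**Figure D2:**
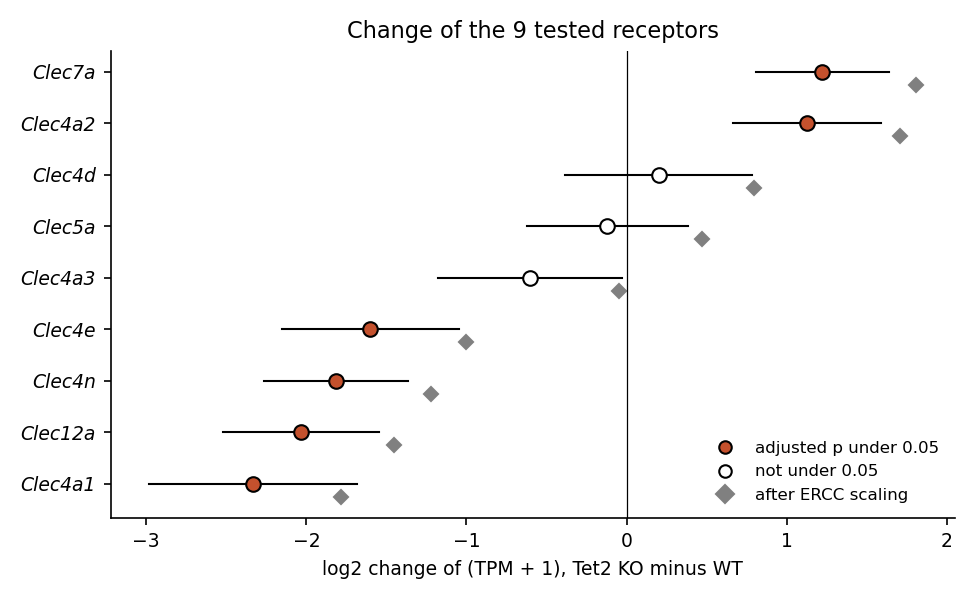
Log2 change of (TPM + 1), Tet2 KO minus WT, for the 9 tested receptors (circles, filled where the adjusted p is under 0.05; lines are 95% intervals from limma) and the same after scaling to ERCC spike-ins (grey diamonds). The 6 called receptors keep their sign under both scalings, with Clec4a1 lowest at -2.33 and Clec7a highest at 1.22, while Clec5a is at -0.12 and 0.47.

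Summed over the 10 receptors, levels came to 1841 and 1568 TPM in libraries labelled Tet2 KO, against 2764 and 2819 TPM in WT. These sums are not scaled to ERCC, whose share was 2.95% and 3.19% in libraries labelled Tet2 KO, against 4.66% and 4.62% in WT. Clec4e and Clec4d made up most of the sum in every library. Clec4e took 27.7% and 33.4% of it in libraries labelled Tet2 KO, against 56.2% and 56.2% in WT, and Clec4d took 49.7% and 44.5%, against 24.9% and 24.9%. Clec7a took 6.39% and 6.59% in libraries labelled Tet2 KO, against 1.66% and 1.68% in WT, and Clec12a took 1.54% and 1.28%, against 3.65% and 3.59%. The order of mean levels in libraries labelled Tet2 KO was Clec4d, Clec4e, Clec5a, Clec7a, Clec4a2, Clec4n, Clec12a, Clec4a3, Clec4a1 and Clec9a. In that order Clec5a and Clec7a overlap in range, as do Clec4a2 and Clec4n, and the other neighbours do not. In WT the order was Clec4e, Clec4d, Clec4n, Clec5a, Clec12a, Clec7a, Clec4a1, Clec4a2, Clec4a3 and Clec9a, with no overlap between neighbours in the 2 libraries, which count as 1 sample.

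**Figure D3:**
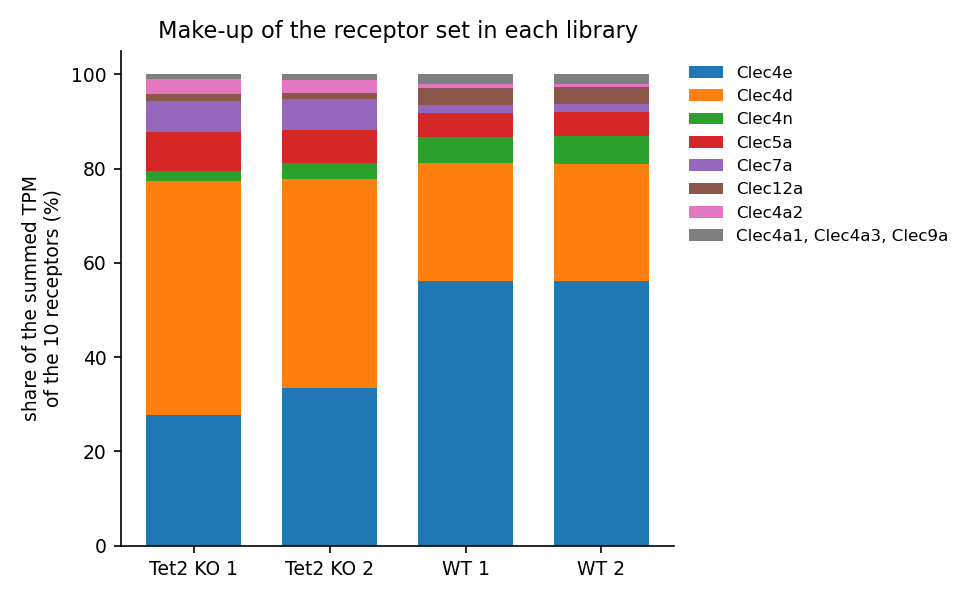
Share of the summed TPM of the 10 receptors (%, stacked to 100) taken by each in each library (Clec4a1, Clec4a3 and Clec9a drawn as 1 band), Tet2 KO libraries on the left and WT libraries on the right. Clec4e takes 27.7% and 33.4% in the Tet2 KO libraries and 56.2% in each WT library, and Clec4d 49.7% and 44.5% against 24.9%.

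Genes annotated within 100 kb of a receptor numbered 26, of which 11 were tested. Beside 22.1% rises and 26.7% falls over all genes tested, these 11 held 3 rises and 6 falls. Their median log2 change was -0.83, against -0.12 over all genes tested. The 2 largest rises of the 11 belonged to further C-type lectin genes. Clec4b2, between Clec4a2 and Clec4n, stood at 40.7 and 33.0 TPM in libraries labelled Tet2 KO, against 0.80 and 1.00 TPM in WT (log2 change 4.31 ± 0.27, limma adjusted p = 3.66e-09). Olr1, which encodes the oxidised LDL receptor LOX-1 and lies 12.5 kb from Clec7a, stood at 243 and 235 TPM in libraries labelled Tet2 KO, against 8.81 and 9.97 TPM in WT (4.53 ± 0.19, adjusted p = 2.83e-11). Both rose more than any of the 10 receptors.

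The neighbours that fell include a pair next to Clec12a. Cd69, an early activation antigen of leukocytes, stood at 13.6 and 16.5 TPM in libraries labelled Tet2 KO, against 684 and 689 TPM in WT (log2 change -5.43 ± 0.20). The predicted gene 4922502D21Rik stood at 0.12 and 0 TPM in libraries labelled Tet2 KO, against 27.0 and 30.6 TPM in WT. Next to Clec4a1, C3ar1, the receptor for complement fragment C3a, fell by 2.34 ± 0.23, and Necap1, an endocytosis gene, fell by 1.01 ± 0.19. Clec4b1, between Clec4a4 and Clec4a2, stood at 1.39 and 2.84 TPM in libraries labelled Tet2 KO, against 7.69 and 9.22 TPM in WT, and fell by 1.64 ± 0.34. Beside Clec5a, the sugar-digesting enzyme gene Mgam rose by 2.25 ± 0.29 and Ssbp1, a mitochondrial DNA-binding protein gene, fell by 0.83 ± 0.24. With ERCC scaling neither Ssbp1 (-0.25) nor Necap1 (-0.43) passed, and the neighbours held 5 rises and 4 falls. Foxj2 at 0.12 ± 0.19 and Gabarapl1 at 0.07 ± 0.20 did not pass, but both did with ERCC scaling (0.70 and 0.66). Without Tet2 KO replicate 1 or 2 the change was 0.09 or 0.14 for Foxj2 and 0.19 or -0.05 for Gabarapl1. Within the 368 kb of the Clec4 genes Clec4a1, Clec4b1, Clec4n and Clec4e fell while Clec4a2 and Clec4b2 rose.

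**Figure D4:**
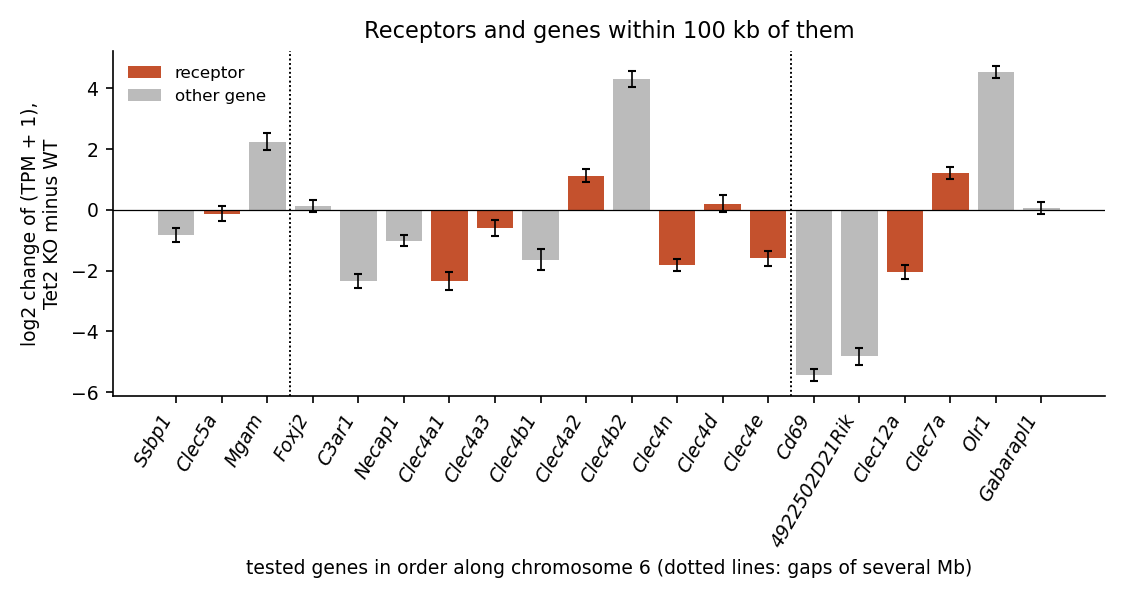
Log2 change of (TPM + 1), Tet2 KO minus WT, for tested receptors (red) and tested genes within 100 kb of a receptor (grey) in their order along chromosome 6. Bars start at 0, error bars are SE from limma, and dotted lines mark gaps of several Mb. Bars of both signs stand side by side in the Clec4 and Clec12a stretches, with Cd69 lowest at -5.43 and Olr1 highest at 4.53.

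Beyond the 10 receptors, a list of 50 other C-type lectin genes held 22 that were tested. Over all genes tested 22.1% rose and 26.7% fell, while 4 of these 22 rose and 13 fell, with a median log2 change of -1.07. Of the falls 8 met a filter of 5 TPM and were called with it. Besides Clec4b2 and Olr1, genes that reached 10 TPM and rose included Thbd, which encodes thrombomodulin, at 1.99 ± 0.36. Falls included Clec2i and Clec2d, which encode ligands of NK cell receptors. Clec2i stood at 13.0 and 19.0 TPM in libraries labelled Tet2 KO, against 157 and 148 TPM in WT, and Clec2d at 33.7 and 26.1 TPM, against 154 and 160 TPM. Selp, which encodes P-selectin, fell by 4.26 ± 0.32. Klrk1, which encodes NKG2D, and Cd72, an inhibitory receptor of B cells, fell by 3.32 ± 0.28 and 3.52 ± 0.28. Mrc1, the macrophage mannose receptor, stood at 23.1 and 49.9 TPM in libraries labelled Tet2 KO, against 80.3 and 80.9 TPM in WT. It did not pass (limma adjusted p = 0.308), and its log2 change was -0.68 without Tet2 KO replicate 1 and -1.76 without replicate 2. Mgl2 at 1.77, Cd302 at 0.18 and Cd93 at -0.38 on the log2 scale did not pass either. With ERCC scaling Mgl2 (2.27) and Cd302 (0.73) passed. Without Tet2 KO replicate 1 or 2 the change was 2.40 or 1.13 for Mgl2 and -0.45 or -0.30 for Cd93. Clec4f, Clec4g, Clec18a, Cd209b, Cd209d, Cd209e and Klrb1a were listed at 0 in all 4 libraries.

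Of the 3 adaptors through which activating receptors signal, Hcst rose, Fcer1g fell and Tyrobp did not pass. Tyrobp, which encodes DAP12, stood at 2636 and 2223 TPM in libraries labelled Tet2 KO, against 1680 and 1703 TPM in WT (log2 change 0.52 ± 0.30, limma adjusted p = 0.173). Fcer1g, which encodes FcR gamma, the partner of Mincle and Dectin-2, stood at 508 and 357 TPM in libraries labelled Tet2 KO, against 744 and 732 TPM in WT (-0.79 ± 0.27, adjusted p = 0.0262). Hcst, which encodes DAP10, rose, at 51.8 and 43.0 TPM in libraries labelled Tet2 KO, against 21.4 and 23.3 TPM in WT (1.05 ± 0.21, adjusted p = 0.000623). The fall of Fcer1g did not pass with ERCC scaling (-0.20), quantile normalization or median centring, nor without trend and robust estimation or without the filter on low values. The difference in Tyrobp passed with ERCC scaling (1.11). It was 0.39 without Tet2 KO replicate 1 and 0.64 without replicate 2. The ratio of Tyrobp to Fcer1g was 5.18 and 6.23 in libraries labelled Tet2 KO, against 2.26 and 2.33 in WT.

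Of 15 kinases and other proximal signalling genes, 5 rose and 4 fell, with a median log2 change of 0.18. Over all genes tested 22.1% rose and 26.7% fell. Fgr and Fyn, kinases of the SRC family, moved in opposite directions: Fgr stood at 385 and 286 TPM in libraries labelled Tet2 KO, against 35.4 and 34.1 TPM in WT, whereas Fyn stood at 12.3 and 21.5 TPM, against 135 and 127 TPM. Fgr rose by 3.22 ± 0.23 and Fyn fell by 2.93 ± 0.31. Lcp2, which encodes the scaffold SLP-76, rose by 1.40 ± 0.23. Syk, the kinase of this pathway, was named after its value was seen: it stood at 328 and 286 TPM in libraries labelled Tet2 KO, against 152 and 153 TPM in WT (1.01 ± 0.22, limma adjusted p = 0.00164). With ERCC scaling the list held 7 rises and 3 falls.

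Of 19 genes of the CARD9 and NF-kB module, 2 rose and 10 fell, with a median log2 change of -0.58. The shares over all genes tested were 22.1% higher and 26.7% lower. The list also holds genes outside CARD9 and NF-kB, among them those of calcineurin and NFAT. Card9 stood at 99.4 and 93.0 TPM in libraries labelled Tet2 KO, against 57.8 and 56.5 TPM in WT (0.74 ± 0.19, limma adjusted p = 0.00461). Malt1, its partner in the same complex, stood at 40.6 and 36.8 TPM in libraries labelled Tet2 KO, against 156 and 157 TPM in WT (-1.99 ± 0.19, adjusted p = 3.61e-07). Nfkb2, an NF-kB subunit, fell by 1.69 ± 0.20, and Ppp3ca, a catalytic chain of calcineurin, rose by 0.64 ± 0.19, which did not pass when the variance trend and the robust estimation were both left out. With ERCC scaling the module held 4 rises and 5 falls.

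Of 10 inhibitors of the pathway, 3 rose and 3 fell, with a median log2 change of 0.11. These counts are near the shares over all genes tested, 22.1% higher and 26.7% lower. The adaptor genes Dok2 and Dok3 rose by 2.92 ± 0.23 and 1.36 ± 0.25. Dok2 stood at 50.6 and 43.9 TPM in libraries labelled Tet2 KO, against 5.02 and 5.74 TPM in WT. Socs1, a brake on cytokine signalling, fell by 2.94 ± 0.25 and Tnfaip3, which encodes the NF-kB inhibitor A20, fell by 1.49 ± 0.22. With ERCC scaling these inhibitors held 5 rises and 2 falls.

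Of 20 listed cytokines and other genes that these receptors can induce, 18 were tested, 7 rose and 9 fell. Their median log2 change was -0.82, and over all genes tested 22.1% rose and 26.7% fell. The neutrophil chemokine Cxcl2 stood at 558 and 528 TPM in libraries labelled Tet2 KO, against 21.4 and 23.3 TPM in WT (4.54 ± 0.21). Cxcl1, of the same family, stood at 13.6 and 13.0 TPM in libraries labelled Tet2 KO and was at 0 and 0.24 TPM in WT. Il6 stood at 0.51 and 1.14 TPM in libraries labelled Tet2 KO, against 50.2 and 53.2 TPM in WT (-4.87 ± 0.33). The chemokine Ccl22 stood at 1.41 and 2.01 TPM in libraries labelled Tet2 KO, against 409 and 406 TPM in WT (-7.24 ± 0.27).

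**Figure D5:**
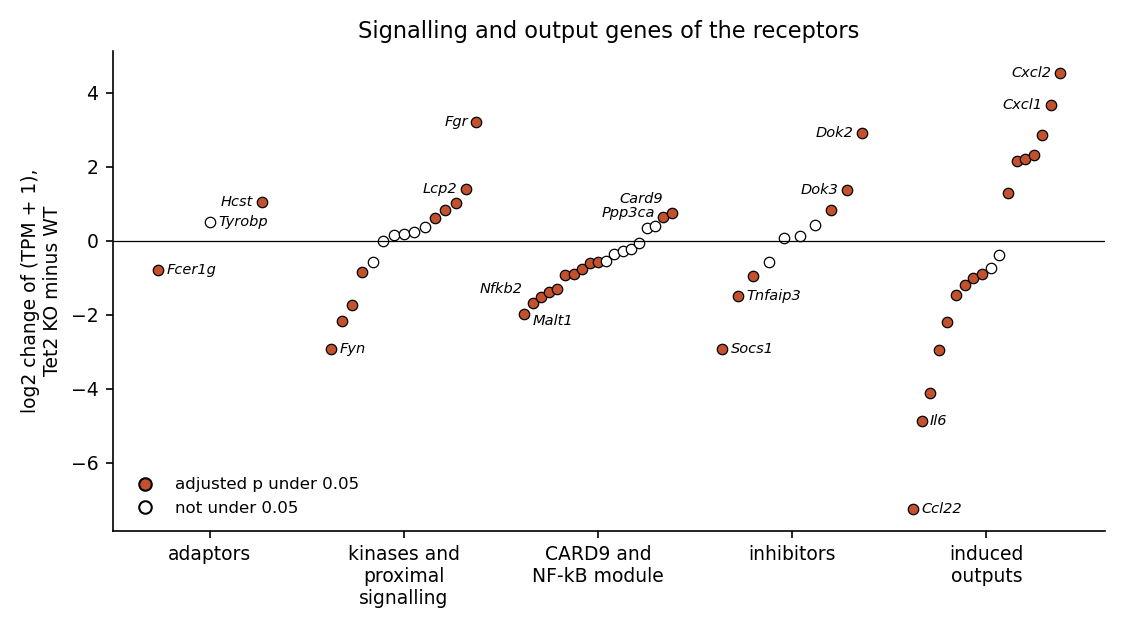
Log2 change of (TPM + 1), Tet2 KO minus WT, for each tested gene of 5 lists (circles, filled where the adjusted p is under 0.05), sorted by size within a list. Every list holds changes in both directions, from -7.24 for Ccl22 to 4.54 for Cxcl2 among induced outputs.

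Markers of myeloid cell types differed between the groups beside these changes, in a comparison where 22.1% of all genes tested rose and 26.7% fell. Of 12 neutrophil markers 11 rose and 0 fell, and their summed level was 86450 and 69880 TPM in libraries labelled Tet2 KO, against 1500 and 1526 TPM in WT. Of 10 monocyte and macrophage markers 1 rose and 6 fell, with sums of 2596 and 2656 TPM, against 4340 and 4338 TPM in WT. With ERCC scaling 1 of them rose and 4 fell. Ly6c2 and Cd14, the highest of this list in every library, were not called. Conventional dendritic cell markers fell in 5 of 5 tested of 8, with sums of 63.4 and 45.1 TPM, against 431 and 434 TPM in WT, 3 of them called with ERCC scaling, but Batf3 was listed at 0 in both WT libraries and Cd209a at 0.28 and 0 TPM there. Plasmacytoid dendritic cell markers fell in 3 of 3 tested of 4 (16.5 and 30.1 TPM, against 349 and 354 TPM in WT), with the defining marker Siglech at 0 and 0.04 TPM, against 1.48 and 1.38 TPM in WT. Of 8 markers of leukaemic myeloid cells 5 rose and 1 fell. The part of these shifts in the receptor changes was not tested.

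Lymphoid and other lineages were low. Markers of B cells summed to 2.48 to 4.03 TPM in libraries labelled Tet2 KO, against 0.95 to 1.32 TPM in WT, with 1 higher of 1 tested. T cell markers summed to 2.37 to 5.33 TPM, against 3.16 to 3.47 TPM in WT, with 0 called of 2 tested by limma and 0 at an unadjusted p under 0.05. NK cell markers summed to 3.25 to 4.31 TPM, against 0.58 to 0.91 TPM in WT, with Ncr1 at 0 in all 4 libraries and 1 higher of 1 tested. Mast cell and basophil markers summed to 36.5 and 41.9 TPM, against 0.94 and 0.95 TPM in WT, with 2 higher of 2 tested. Megakaryocyte markers summed to 12.7 and 18.8 TPM, against 2.37 and 1.96 TPM in WT, with 2 higher of 2 tested. Erythroid markers summed to 5.38 and 43.2 TPM, against 4.10 and 2.44 TPM in WT, with 1 higher of 2 tested. Most of the 43.2 TPM was Hba-a1, uncalled, at 0 and 33.9 TPM in libraries labelled Tet2 KO. The higher gene was Hbb-bt, at 4.32 and 8.24 TPM, against 0.69 and 0.53 TPM in WT. Red pulp macrophage markers summed to 22.7 and 14.6 TPM, against 33.8 and 34.7 TPM in WT, with 1 lower of 4 tested. That 1 was Cd163, at 1.28 and 2.50 TPM, against 25.6 and 26.6 TPM in WT. Siglec1 was lower too, uncalled. Spic, Vcam1 and Slc40a1 were higher in both libraries labelled Tet2 KO, also uncalled. With ERCC scaling 2 of the red pulp list were called higher.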

How the data were processed

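RNA of splenic CD45.2-enriched AML cells was made into libraries with a stranded mRNA kit, per the labels' protocols. Per the submitters' processing notes, STAR and RSEM were used with mm10; their versions, the annotation and the strand setting are not given in the sources used here. As deposited by the authors, values are TPM. The authors deposited TPM per gene for 4 libraries over 24589 rows, 92 of them ERCC spike-ins, which were left out of tests; 27 rows hold a date in place of a name, and none is named here. TPM keeps no depth: steps of low values gave approximate depths of 27.5 and 27.8 M reads in the libraries labelled Tet2 KO and 24.6 and 22.02 M in WT, assuming each gene's longest transcript less 200 nt (72.2% to 75.4% of low values fell within 0.2 of a whole read), and no counting interval is given. The within-pair variance was compared with read sampling for genes above a floor of 20 estimated reads per pair.

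Genes with at least 1 TPM in at least 2 libraries (11919) were tested on log2(TPM + 1) by limma 3.58.1 (R 4.3.3), with abundance trend and robust estimation, the WT pair averaged (1 residual degree of freedom; the single WT mean is taken to vary as the others do). All 9 tested receptors exceeded 5 TPM in every library. Errors are SE from limma. Alternatives changed the pseudocount, filter, variance model and scaling, took both WT libraries as samples, added a replicate block, or left out a library. Members, lists and motifs were chosen with earlier results of these data known. Genes named are the 10 receptors, the adaptors, the 2 largest called rises and falls of each other signalling list, other C-type lectin genes reaching 10 TPM, and tested genes within 100 kb; list results beyond these are counts, and some genes that this rule names are not reported here. Marker genes and Clec4a4 were named after their values were seen. Coordinates come from GENCODE M21 and count from 1. Proteins were not analysed here.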

Additional observations from a re-analysis of the deposited data

How the results depend on the processing

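Without the filter on low values, limma called 0 receptors higher and 0 lower (1 and 1 at an unadjusted p under 0.05), and 123 genes higher and 295 lower of 18594; each list of signalling genes, other C-type lectin genes and neighbours then held at most 1 call. ERCC scaling gave 4942 rises and 1492 falls over all genes, a share of 76.8% rises in place of 45.2%, with a median log2 change over all genes of 0.43 in place of -0.12; the receptor counts stayed at 2 higher and 4 lower. Leaving out 1 library at a time gave 2 to 4 receptors higher and 4 to 6 lower, and over all genes 2651 to 4321 higher and 3192 to 5674 lower; the highest counts came without a Tet2 KO library, where the spread is that of the WT pair alone. Taking both WT libraries as samples gave 3520 and 4517, and 2 and 5 receptors. The titles share replicate numbers, but same-numbered libraries did not deviate together (correlation -0.0021 over 9504 genes), and a replicate block gave 3495 genes higher and 4461 lower and 2 and 5 receptors. Signs turned for Clec5a (0.47 with ERCC scaling, -0.37 to 0.13 on leaving out 1 library), Cd93 (0.22 with ERCC scaling) and Gabarapl1 (-0.0495 to 0.1866 on leaving out 1 library), none of the 3 called with all libraries and no added scaling; the causes were not tested. The other alternatives (pseudocount 0.1, a minimum of 5 TPM, no trend, quantile normalization, median centring) left both receptor counts as they were. With 1 WT sample against 2, the 95% intervals of the log2 changes set the limit: that of Clec4d, from -0.38 to 0.78, leaves room for a difference in either direction.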
